A study of Mus musculus with 23 samples.

Results

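Libraries made from 0.5 ng of mouse RNA were compared with libraries made from 5 ng, a 10-fold difference in input, over all genes of the deposited count table. These 6 libraries (n = 3 per input) are part of a series of 23, and the table lists 22488 genes, of which 12558 had enough counts to be tested. The series evaluates EASY-RNAseq, a low-input protocol. RNA was copied with an oligo-dT primer and reverse transcriptase, made double-stranded, and cut and tagged by the Tn5 transposase. A fixed mass of double-stranded cDNA entered the tagmentation at every input, and both groups were otherwise treated alike. The labels give strain C57, an age of 6 to 18 weeks and total RNA for all 6 libraries, with no genotype and no agent. The origin of the replicates (other mice, or aliquots of 1 RNA) is not given, so the p-values measure only the spread between these libraries, which may be technical. With less RNA, fewer molecules of each transcript are there to be copied, and a rare transcript can be missed altogether. Priming at the poly(A) tail and cutting by Tn5 also set which cDNA gives fragments, since a short cDNA offers Tn5 few places to insert.

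The series design describes the RNA as extracted from spleen, whereas the sample characteristics name RAW 264.7, a mouse macrophage line. The spleen filters blood and houses B cells, T cells, plasma cells, macrophages, granulocytes and, in the mouse, maturing red cells. Genes that define these cells were present at both inputs. A list of 20 B cell genes took 3.75 ± 0.0140% of counts at 0.5 ng and 4.24 ± 0.0683% at 5 ng (SD, n = 3). An erythroid list of 15 genes took 0.407 ± 0.0116% and 0.502 ± 0.00249%, a neutrophil list of 16 took 0.504 ± 0.0134% and 0.567 ± 0.0153%, and a T cell list of 20 took 0.271 ± 0.00327% and 0.278 ± 0.00837%. The macrophage and monocyte list of 18 genes took 0.431 ± 0.0115% and 0.452 ± 0.00543%. The data thus go against the cell-line label as the only source. In bulk RNA, fewer cells of a type and less RNA per cell cannot be told apart.

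Library totals were 4092084, 4230190 and 3702988 counts at 0.5 ng and 6841726, 7492393 and 7908638 counts at 5 ng, so the higher input was also sequenced more deeply. Even numbers made up 57.9% to 64.4% of each library's nonzero counts, which touches the detection of rare genes below. Values per library are CPM, the usual scaling of counts by the library's total, and a fold change is on the log2 scale as 0.5 ng over 5 ng. A gene is called higher or lower where edgeR's quasi-likelihood test gave a p under 0.05 after Benjamini-Hochberg adjustment over the 12558 genes. Abundance is the mean CPM in the 3 libraries made from 1 ng, which are outside the comparison.

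Most genes differed little across the 10-fold change of input. Of the 12558 genes, 639 were called, which is 5.09%; 361 were higher at 0.5 ng (2.87%) and 278 were lower (2.21%). The median fold change of all genes was 0.0004 and 95.1% of genes lay within 2-fold. Among the called genes the median absolute change was 0.43, and 86 changed at least 2-fold, 41 of them higher and 45 lower. In 638 of the 639 the CPM of the 2 groups did not overlap. Calling itself favours genes with groups apart, so this adds no support to the calls, here or for single genes below. Groups apart were also a condition for naming the largest rises and falls. The number of calls changed with the libraries in the fit. Without 1 of the 5 ng libraries it was between 172 and 206 (172 without replicate 1, 206 without replicate 2, 202 without replicate 3), without 1 of the 0.5 ng libraries between 687 and 815, and 34 when all 11 RNA libraries shared 1 fit.

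**Figure D1:**
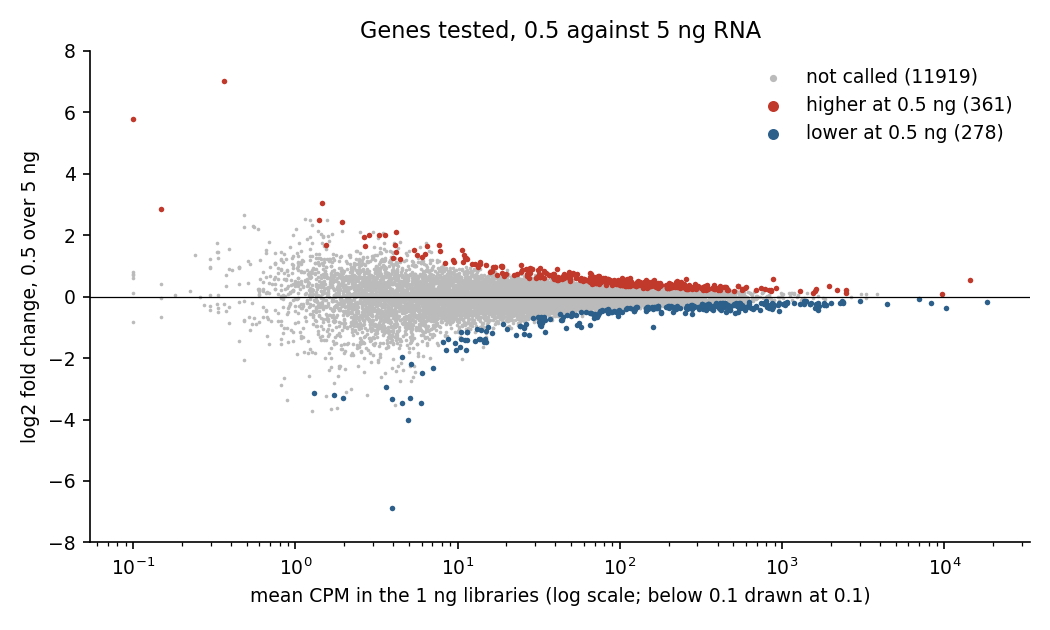
Log2 fold change (0.5 over 5 ng RNA) of each of the 12558 genes tested against its mean CPM in the 1 ng libraries, on a log axis. Red points are the 361 genes called higher at 0.5 ng and blue points the 278 called lower; calls of small size appear only among abundant genes.

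The share of genes called rose with abundance, while the size of the changes fell. In the abundance bin under 1 CPM 1.63% of the tested genes were called, and the share was 1.02% at 1 to 3 CPM, 1.60% at 3 to 10, 2.31% at 10 to 30, 3.91% at 30 to 100, 10.4% at 100 to 300, 29.2% at 300 to 1000 and 63.2% at 1000 CPM and over. The median standard error (SE) of a fold change fell over the same bins from 0.80 to 0.0360, so a smaller change passed the test in an abundant gene. The median absolute change of the called genes was 2.47 at 1 to 3 CPM, 1.01 at 10 to 30, 0.36 at 100 to 300 and 0.21 at 1000 CPM and over.

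Direction also changed with abundance. Under 300 CPM, 306 genes were higher at 0.5 ng and 157 lower, while at 300 CPM and over 55 were higher and 121 lower. Genes of cytosolic ribosomal proteins made up much of the latter: without them the counts at 300 CPM and over were 55 higher and 63 lower. In the bin of 1000 CPM and over, which holds 68 genes, 10 were higher and 33 lower.

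Rare genes were found less often at 0.5 ng. At a common depth of 3702988 counts, the 0.5 ng libraries detected 15260, 15473 and 15409 genes and the 5 ng libraries 16913, 17086 and 16978. All 3 libraries of the lower input were below all 3 of the higher. The means were 15380.7 ± 109 and 16992.3 ± 87.4 genes (SD, n = 3; exact permutation p = 0.1, two-sided, the smallest that 3 against 3 allows). Since even counts are frequent, counts may come in pairs, and drawing single counts then splits pairs in the deeper libraries. Drawing units of 2 counts, a choice made after seeing the data, gave 15302 ± 130 and 16314 ± 74.0 genes. The difference was then 1012 genes.

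The genes missed were those of low abundance. With units of 2 counts, 25.6 ± 1.21% of the 8836 genes under 1 CPM were detected at 0.5 ng and 33.2 ± 0.849% at 5 ng. At 1 to 3 CPM it was 74.9 ± 0.728% and 87.8 ± 0.976% of 2190 genes, and at 3 to 10 CPM 97.1 ± 0.498% and 99.6 ± 0.0542% of 2129. From 10 CPM on, both inputs detected more than 99.9% of genes. With the same units, 171 genes had a count in all 3 libraries of 5 ng and in none of 0.5 ng, and 30 had the reverse pattern.

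**Figure D2:**
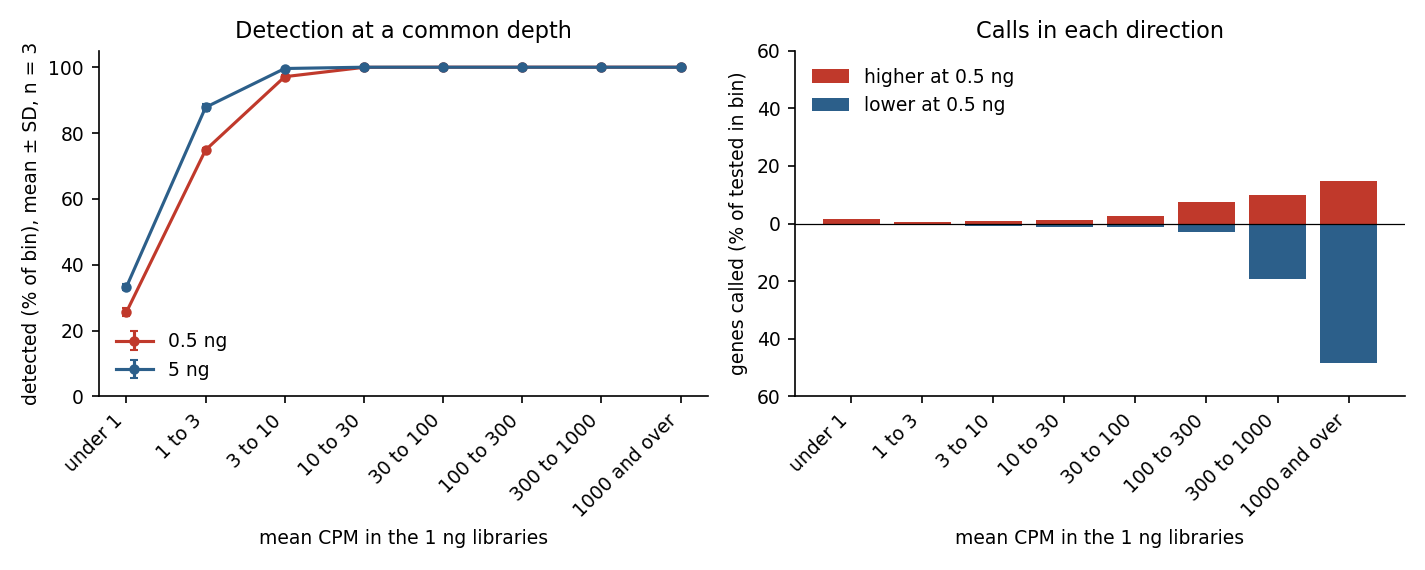
Left, percent of the genes of an abundance bin with at least 1 count after drawing the same number of 2-count units from every library, as mean ± SD of 3 libraries: 25.6% against 33.2% under 1 CPM and near 100% from 10 CPM on. Right, percent of tested genes called in each direction, with higher at 0.5 ng above the line and lower below it, reaching 48.5% lower at 1000 CPM and over.

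Replicates of 0.5 ng resembled each other less than replicates of 5 ng. The mean Pearson's r across genes between libraries of log2(CPM + 1), at the common depth, was 0.970 within 0.5 ng, 0.986 within 5 ng and 0.975 between the inputs; these describe libraries across genes, which are not replicates, with no test. The biological coefficient of variation, edgeR's estimate of the relative spread beyond counting error, was 0.185 at 0.5 ng and 0.0653 at 5 ng at the common depth. That depth was reached here by drawing single counts, and on the counts as deposited the coefficient was 0.189 and 0.0811. For 73.7% of the tested genes the SD between replicates was larger at 0.5 ng. The difference reached from rare to abundant genes: the median coefficient of variation of a gene was 43.7% and 26.7% at 3 to 10 CPM, 14.7% and 8.70% at 30 to 100 CPM, and 2.93% and 1.79% at 1000 CPM and over.

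The listed class with the most calls was that of the cytosolic ribosomal proteins, which build the subunits of the ribosome and whose short mRNAs are among the most abundant in any cell. Of its 80 genes, all tested, 64 were lower at 0.5 ng and 0 higher, against 2.21% lower among all genes. Their median fold change was -0.31, beside 0.0004 for all genes, and 79 of the 80 were negative. Together they took 3.91, 3.94 and 3.99% of counts at 0.5 ng and 4.88, 4.80 and 4.83% at 5 ng. The groups did not overlap (exact permutation p = 0.1, two-sided, adjusted p = 0.135 over the lists). The quartiles of their fold changes were -0.40 and -0.24.

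Rpsa, a protein of the small subunit that also binds laminin, lay at 1407, 1457 and 1401 CPM at 0.5 ng and at 1755, 1737 and 1722 CPM at 5 ng. Its fold change was -0.29 (SE 0.0338, adjusted p = 2.97e-05, edgeR's quasi-likelihood test). Rplp0, of the stalk of the large subunit, lay at 1630, 1607 and 1759 CPM and at 1993, 1963 and 2028 CPM, and fell by 0.26 (SE 0.0371, adjusted p = 0.000292, edgeR). The 0.5 ng libraries were below the 5 ng libraries for both genes. Rpl4, of the large subunit, fell by 0.20 (SE 0.0341, adjusted p = 0.00173, edgeR). Of the remaining members, Rpl21 (-0.54), Rpl41 (-0.53), Rpl36 (-0.53) and Rpl38 (-0.51) fell most among those called, and Rpl3 (-0.15) and Rpl5 (-0.15) least. Only Rps10 had a positive value (0.42, SE 0.53, adjusted p = 0.73, edgeR), from 73 counts in the 3 libraries of 0.5 ng. Coding length went with the size of the fall only weakly (Spearman's rho = 0.219 over the 74 members at 100 CPM or more at 5 ng, a description across genes): the medians of the 24 shortest and the 24 longest were -0.30 and -0.27.

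The elongation factor genes Eef1a1 and Eef2 were lower too. Eef1a1, which brings aminoacyl-tRNA to the ribosome, lay at 7414, 7609 and 7866 CPM at 0.5 ng and 8783, 8821 and 8834 CPM at 5 ng, and fell by 0.21 (SE 0.0217, adjusted p = 1.05e-05, edgeR). Eef2, the translocation factor, lay at 3922, 3982 and 3799 CPM against 4715, 4592 and 4597 CPM, and fell by 0.25 (SE 0.0246, adjusted p = 6.38e-06, edgeR). Neither gene's groups overlapped. They belong to a list of 18 housekeeping genes, of which 4 were lower (22.2%, against 2.21% of all genes) and 1 higher. The median abundance of the list was 343 CPM, and 19.3% of all tested genes at 300 to 1000 CPM were lower. Actb, the cytoplasmic actin, did not pass (-0.06, SE 0.0275, adjusted p = 0.286, edgeR), and its groups overlapped.

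The respiratory chain split by genome. Its subunits are encoded partly in the nucleus and partly in mitochondrial DNA. Of 76 nuclear-encoded genes of oxidative phosphorylation, 8 were lower (10.5%, against 2.21% of all genes) and 0 higher, with a median of -0.22 and 65 negative values. They included the complex I subunits Ndufc1 (-1.46, SE 0.340) and Ndufa5 (-1.39, SE 0.374). Ndufc1 and Ndufa5 had 66 and 54 counts over the libraries of 0.5 ng, and their calls were kept in 10 and 9 of 14 alternatives. Also lower was Atp5a1, a subunit of the catalytic head of ATP synthase, which fell by 0.23 (SE 0.0518, adjusted p = 0.0130, edgeR). Atp5b, of the same catalytic head, fell by 0.15 (SE 0.0438, adjusted p = 0.0454, edgeR), and this call was kept in 6 of 14 alternatives, with an adjusted p between 0.00283 and 0.645. Of the 13 mitochondrially encoded genes, 7 were higher and 0 lower, with a median of 0.23, beside 2.87% higher among all genes. Their share was 2.61, 2.52 and 2.53% at 0.5 ng and 2.24, 2.27 and 2.29% at 5 ng.

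Among the mitochondrial genes mt-Nd6, a subunit of complex I, changed most of those called, at 1075, 1037 and 1086 CPM at 0.5 ng and 642, 734 and 789 CPM at 5 ng. Every library of 0.5 ng was above every library of 5 ng, with a fold change of 0.56 (SE 0.0580, adjusted p = 1.05e-05, edgeR). It is encoded on the opposite strand from the other protein genes of this DNA, and no source used here says that counting was by strand, so transcripts of the 2 strands cannot be told apart. The complex I subunits mt-Nd4 (0.36) and mt-Nd5 (0.23) and the ATP synthase subunit mt-Atp6 (0.53) rose as well. The rise of mt-Co1, a cytochrome c oxidase subunit and the most abundant of the class, was 0.09 (SE 0.0179, adjusted p = 0.00461, edgeR). Lars2, the mitochondrial leucyl-tRNA synthetase, lay at 13867, 15800 and 17992 CPM and at 9375, 11899 and 11432 CPM. It rose by 0.54 (SE 0.0713, adjusted p = 0.000139, edgeR). Part of its transcript resembles mitochondrial ribosomal RNA, so its counts are uncertain.

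**Figure D3:**
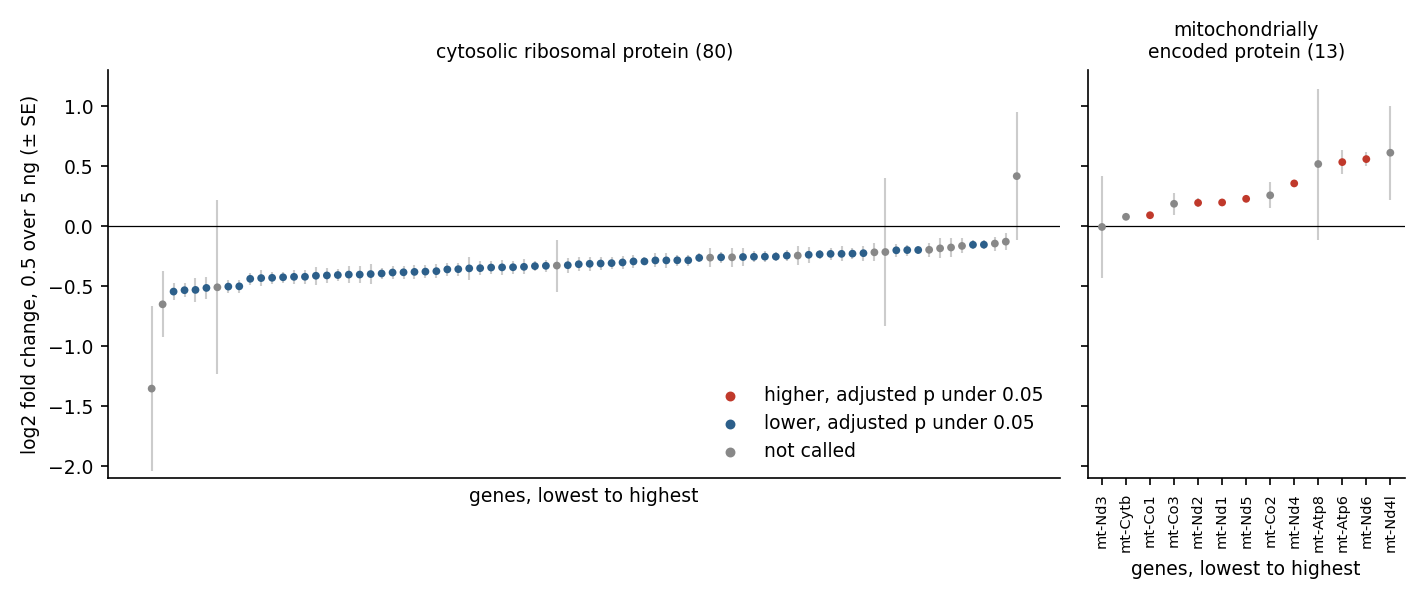
Log2 fold change (0.5 over 5 ng RNA) ± SE of the 80 cytosolic ribosomal protein genes and the 13 mitochondrially encoded genes, each ordered from lowest to highest. Blue marks the 64 genes called lower, red the 7 called higher and grey the genes not called; the values below -0.6 and above 0.4 on the left have wide errors.

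Several cell-type lists held lower genes at more than the share of all genes (2.21%), though that share rises with abundance, and the lists were not compared with other genes of their abundance. Red cell genes were lower in 3 of 15 cases (20.0%) and higher in 0, with a median of -0.20, and their share of counts at 0.5 ng was 0.811 of that at 5 ng. Hbb-bs, an adult beta globin, lay at 1334, 1282 and 1240 CPM at 0.5 ng and 1770, 1685 and 1731 CPM at 5 ng, and fell by 0.43 (SE 0.0367, adjusted p = 1e-06, edgeR). Hba-a1, an alpha globin, fell by 0.47 (SE 0.0583, adjusted p = 7.12e-05, edgeR), and its groups did not overlap either. Hbb-bt, also an adult beta globin, did not pass (-0.12, SE 0.0909, adjusted p = 0.499, edgeR), and its groups overlapped. Of the 15 genes, 5 had a positive value and 10 a negative one. Globin genes have close relatives, so the split of counts between copies is uncertain. Slc4a1, the red cell anion exchanger, did not pass (-0.21, SE 0.0656, adjusted p = 0.0761, edgeR).

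B cell genes were lower in 3 of 20 cases (15.0%), with a median of -0.08. Igkc, the kappa light chain constant region, lay at 8990, 9063 and 8590 CPM at 0.5 ng and 10787, 11331 and 11939 CPM at 5 ng, and fell by 0.36 (SE 0.0277, adjusted p = 5.65e-07, edgeR). Ighm, the constant region of IgM, fell by 0.18 (SE 0.0149, adjusted p = 1e-06, edgeR), and Cd79a, a signalling chain of the B cell receptor, by 0.22 (SE 0.0457). Ms4a1, which encodes CD20, had a positive value that did not pass (0.11, SE 0.0362, adjusted p = 0.103, edgeR). Among 14 plasma cell genes 1 was higher (7.14%, against 2.87% of all genes) and 2 lower (14.3%, against 2.21%). Their median was -0.07, with 10 negative values. Jchain, which joins antibody multimers, rose by 0.19 (SE 0.0332, adjusted p = 0.00183, edgeR). Ighg2c, an IgG heavy chain, fell by 0.17 (SE 0.0313, adjusted p = 0.00244, edgeR). At 0.1 against 1 ng, described below, Jchain was at -0.25 (SE 0.0758, not called) and Ighg2c at -0.37 (SE 0.0667, called).

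Of 14 genes listed for dendritic cells and MHC class II, 5 were lower (35.7%, against 2.21% of all genes) and 1 higher (7.14%, against 2.87%). The chains that present peptide to helper T cells fell together, H2-Aa by 0.20 (SE 0.0326) and H2-Ab1 by 0.23 (SE 0.0337), and Cd74, their chaperone, by 0.08 (SE 0.0210). Neutrophil genes were lower in 3 of 16 cases (18.8%), with S100a9, a calcium-binding granulocyte protein, at 760, 775 and 719 CPM against 970, 941 and 957 CPM, a fall by 0.35 (SE 0.0438, adjusted p = 7.42e-05, edgeR). Macrophage and monocyte genes had 1 call in each direction among 18 (5.56% each, against 2.87% higher and 2.21% lower of all genes). Of all genes tested, 18.7% had an unadjusted p under 0.05 by edgeR, and DESeq2 called 1376 genes. By edgeR, 0 of 20 T cell genes were called (5 at an unadjusted p under 0.05, 3 by DESeq2), and 0 of 12 cytotoxic and NK cell genes (2 and 2). The same held for 0 of 37 proteasome genes (8 and 3), 0 of 38 replication-dependent histone genes (3 and 0) and 0 of 28 collagen genes (3 and 2).

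T cell receptor variable genes went against the T cell list. These segments encode the antigen-binding part of the receptor and are joined by recombination to the constant genes Trac, Trbc1 and Trbc2. Over all 136 segments in the table, the share of counts was 0.0270, 0.0236 and 0.0207% at 0.5 ng and 0.00971, 0.00890 and 0.00913% at 5 ng, a ratio of 2.57 between the means. All libraries of 0.5 ng were above all of 5 ng (exact permutation p = 0.1, two-sided, adjusted p = 0.135 over the lists). Of 20 segments with enough counts to test, 18 of them of the beta chain, 8 were higher and 0 lower, and all 8 were beta segments. A segment can have entered the test through its counts at 0.5 ng alone, so this number is no count over the class.

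Trbv13-1 lay at 21.0, 15.4 and 17.0 CPM at 0.5 ng and 5.85, 3.74 and 4.17 CPM at 5 ng, a fold change of 1.95 (SE 0.330, adjusted p = 0.00158, edgeR). Trbv31 lay at 13.4, 12.5 and 7.56 CPM against 2.34, 0.534 and 1.14 CPM, a fold change of 3.06 (SE 0.560). Trbv21 had 15, 12 and 7 counts at 0.5 ng and 0 at 5 ng, so with counts taken as pairs it was at least 11.1-fold higher at 0.5 ng, against a floor of 3 pairs in the whole group. No library of 0.5 ng overlapped one of 5 ng in these 3 genes, which was a condition for naming Trbv31. Trbv31 and Trbv21 entered the test through their counts at 0.5 ng alone, so their values only describe the counts of these genes. Trbc2 (-0.10, SE 0.0824), Trbc1 (-0.19, SE 0.0979) and Trac (0.06, SE 0.0868) were not called. Immunoglobulin variable genes did not share the pattern, with a median of -0.07. By edgeR 0 of 159 tested were called (7 at an unadjusted p under 0.05, against 18.7% of all genes, and 3 by DESeq2). The T cell receptor segments stood at 0.00979 ± 0.000432% in the 1 ng libraries (SD, n = 3) and at 0.0109 and 0.0161% in the 2 libraries of 0.1 ng. Segments have close relatives, and single ones are uncertain.

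**Figure D4:**
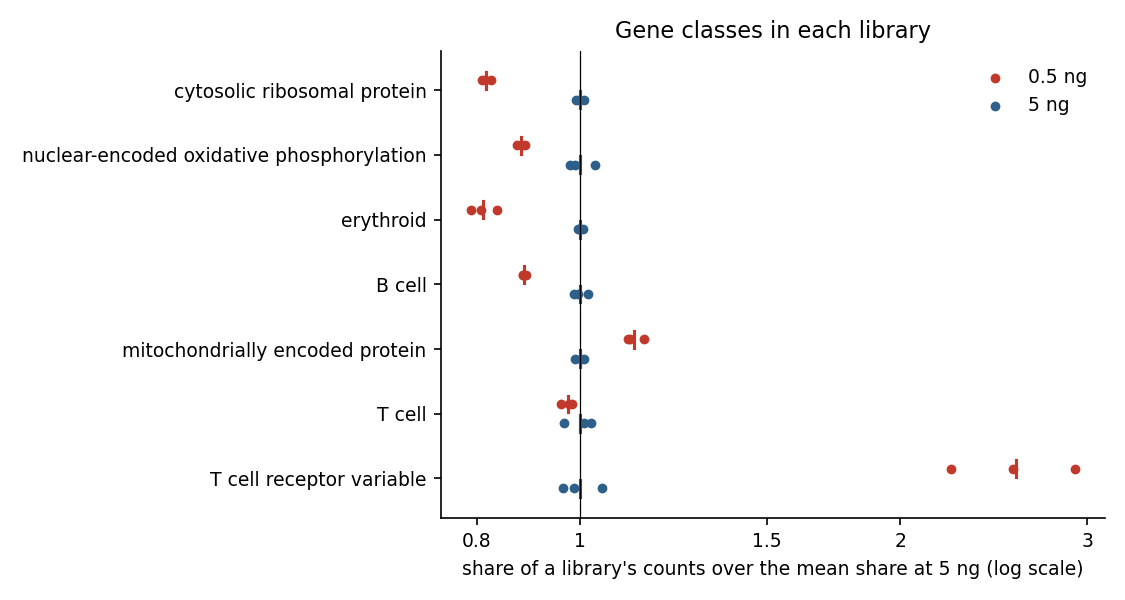
Share of a library's counts taken by 7 gene classes, over the mean share at 5 ng, on a log axis; points are libraries, short bars are means of 3. Cytosolic ribosomal protein genes lie near 0.816 at 0.5 ng, mitochondrially encoded genes near 1.13 and T cell receptor variable genes near 2.57, while T cell genes overlap between the inputs.

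Among the named genes with a call of at least 2-fold, Zscan26, a zinc finger protein, lay at 45.7, 46.1 and 45.1 CPM at 0.5 ng and 20.8, 24.3 and 22.3 CPM at 5 ng, a rise of 1.02 (SE 0.174, adjusted p = 0.00168, edgeR). Sun2, which links the nuclear envelope to the cytoskeleton, lay at 109, 88.6 and 74.3 CPM against 189, 172 and 183 CPM, and fell by 1.00 (SE 0.113, adjusted p = 2.45e-05, edgeR). Hyou1, a chaperone of the endoplasmic reticulum, lay at 34.2, 44.9 and 26.5 CPM against 68.4, 73.4 and 73.0 CPM, and fell by 1.02 (SE 0.170, adjusted p = 0.00132, edgeR). The groups did not overlap for any of the 3.

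Rarer genes had larger values and wider errors. Trem1, an amplifier of inflammation on myeloid cells, rose by 1.52 (SE 0.302, adjusted p = 0.00544, edgeR), Zbtb8a, a zinc finger protein, by 1.69 (SE 0.391) and Fzd7, a Wnt receptor, by 1.63 (SE 0.404). Among the falls, Apc2, a relative of the Apc tumour suppressor, changed by -1.73 (SE 0.440, adjusted p = 0.0261, edgeR) and Cul7, a scaffold of ubiquitin ligases, by -1.51 (SE 0.378). The odorant receptor gene Olfr342 had 11, 26 and 8 counts at 0.5 ng and 0, 0 and 1 at 5 ng, a ratio of 42.5 with counts taken as pairs, with a 95% counting interval of 6.91 to 1752. Its counts at 0.5 ng alone brought Olfr342 into the test, so the ratio only describes the counts of this gene. Of 308 zinc finger protein genes 13 were higher (4.22%, against 2.87% of all genes) and 4 lower, where 2.21% of all genes were lower. Of 22 cell-cycle genes 1 was higher and 2 lower, with Top2a, a DNA topoisomerase, up by 0.28 (SE 0.0596) and Mki67 down by 0.18 (SE 0.0492).

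Base composition, examined after seeing the data, differed between the genes that rose and those that fell. By the longest transcript of a gene in GENCODE M21, the median GC content was 42.1% in the genes called higher, 52.2% in those called lower and 49.8% in all tested. Across the 12543 tested genes with a length, Spearman's rho between fold change and GC was -0.270, a description across genes. In the bin under 40% GC, 99 of 742 genes were higher (13.3%, against 2.87% of all genes) and 2 lower (0.270%, against 2.21%). The median there was 0.22. In the bin from 55 to 60%, 3 of 2340 were higher (0.128%) and 68 lower (2.91%), with a median of -0.10. Without ribosomal protein genes, 2.41% of that bin were lower, close to the 2.21% of all genes. At 60% and over, 0 of 483 were higher and 15 lower (3.11%), with a median of -0.08. Rises under 40% GC stood further from the share of all genes than falls at high GC did. The order held within a range of abundance, 30 to 300 CPM. The median was 0.22 under 40% GC, where 74 of 390 genes were higher and 0 lower. It was -0.10 at 55 to 60%, where 1 of 960 was higher and 35 lower. Over all 5822 genes tested in this range, 240 were higher and 108 lower.

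To show what transcripts at either end of the GC range look like, the first 60 coding bases are given, from the GENCODE M21 transcripts on GRCm38, of called genes at 100 CPM or more. By GC of the longest transcript, the first 3 are the lowest of those that rose and the last 3 the highest of those that fell, among the genes named by rule. They are written 5′ to 3′ with G and C in capitals.
mt-Nd6: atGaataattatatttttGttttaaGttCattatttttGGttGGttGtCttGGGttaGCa
Ddx3y: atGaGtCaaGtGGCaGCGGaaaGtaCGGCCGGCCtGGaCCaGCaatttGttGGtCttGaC
mt-Nd5: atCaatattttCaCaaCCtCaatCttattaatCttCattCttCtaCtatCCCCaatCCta
Eef2: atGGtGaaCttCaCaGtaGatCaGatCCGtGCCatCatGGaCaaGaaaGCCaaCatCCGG
Hba-a1: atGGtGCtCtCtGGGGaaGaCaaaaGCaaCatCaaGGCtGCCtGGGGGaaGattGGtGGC
H2-Ab1: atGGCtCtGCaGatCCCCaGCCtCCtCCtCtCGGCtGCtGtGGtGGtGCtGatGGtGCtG
Over the whole coding sequence, GC was 34.3% in mt-Nd6, 42.9% in Ddx3y and 37.2% in mt-Nd5. It was 57.3% in Eef2, 58.7% in Hba-a1 and 61.5% in H2-Ab1. Ddx3y, a Y-linked RNA helicase, rose by 0.44 (SE 0.0903), and its transcript as a whole has 36.1% GC. In the printed bases alone the order does not hold: GC is 55.0% in Ddx3y, which rose, and 48.3% in Eef2 and 55.0% in Hba-a1, which fell.

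The median GC of the ribosomal protein genes was 51.0%. Among genes at 300 CPM and over with 50 to 55% GC, the 25 ribosomal protein genes had a median fold change of -0.29, with 22 lower, and the 132 other genes one of -0.07, with 28 lower. This comparison was added after seeing the data, and the difference was not tested. The mitochondrially encoded genes, at a median GC of 37.1%, had a median of 0.23, and all genes under 40% GC one of 0.22. Length also went with direction. Genes with under 1000 bases of exon had a median of -0.13 and those of 8000 bases and over one of 0.07, and the median exon length was 6256 bases in genes called higher, 3449 in those called lower and 4525 in all tested.

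**Figure D5:**
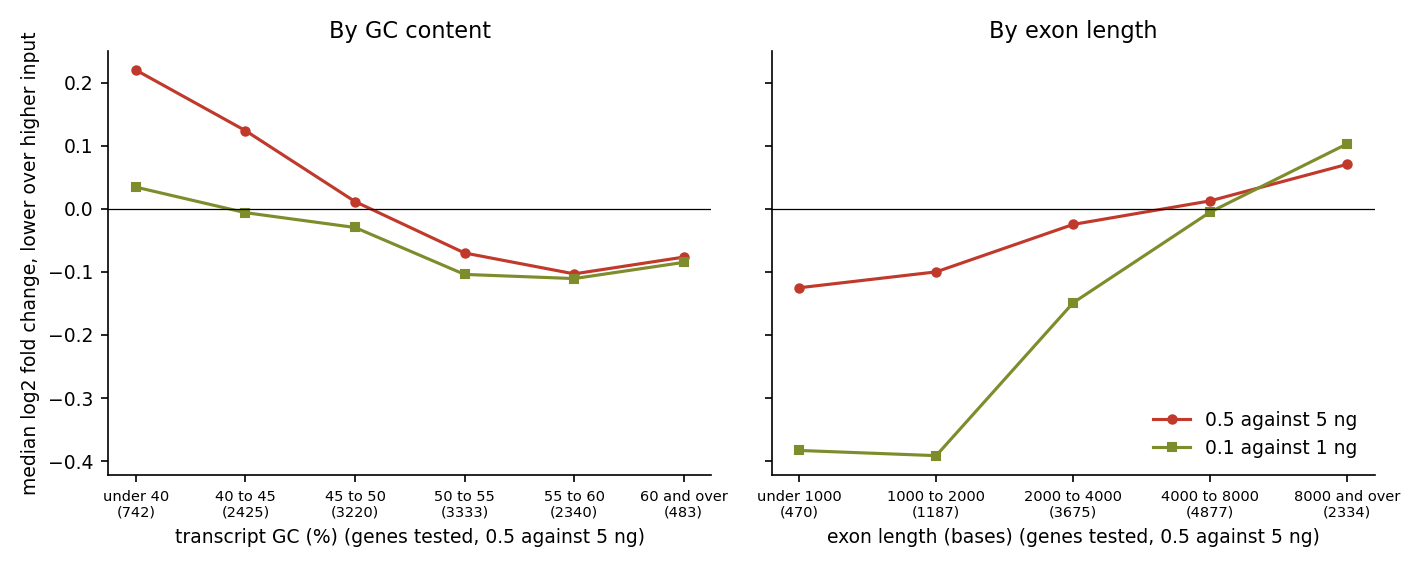
Median log2 fold change of the lower over the higher input in bins of transcript GC (left) and exon length (right), for 0.5 against 5 ng and for 0.1 against 1 ng, with the number of genes tested at 0.5 against 5 ng in brackets. The 0.5 against 5 ng line falls from 0.22 under 40% GC to -0.10 at 55 to 60%, and is at -0.08 at 60% and over. The 0.1 against 1 ng line is flatter with GC and steeper with length.

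The comparison of 0.1 with 1 ng (n = 2 and 3) is also 10-fold and shares no library with 0.5 against 5 ng. It was added after seeing the data. There, 609 of 12618 genes were called (4.83%). Of the 278 genes lower at 0.5 ng, 276 were tested and 207 were negative, with a median of -0.38 and 83 called lower against 1 higher. Over all 11868 genes tested in both, 53.5% were negative, the median was -0.06, and 358 were called lower and 190 higher. Ribosomal protein genes made up 64 of the 278, and all those tested at 0.1 against 1 ng were negative, as described below. The others were not counted apart, so the values of the 278 do not show how far other genes fell. Of the 361 genes higher at 0.5 ng, 354 were tested and 191 were positive (54.0%, against 46.5% of all), with a median of 0.05 and 11 called higher against 4 lower.

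Ribosomal protein genes were lower in this comparison too, with 61 of 79 called, all 79 negative and a median of -0.71. Their share of counts was 2.95 and 2.80% at 0.1 ng and 4.56 ± 0.0806% at 1 ng, between which lies 0.5 ng at 3.95 ± 0.0391%, while 5 ng was at 4.84 ± 0.0421% (SD, n = 3 each). Hbb-bs (-0.81) and Igkc (-0.59) fell in it as well. The mitochondrially encoded genes had 1 call higher and 0 lower of 13 and a median of 0.02, and their share was 2.15 and 2.24% at 0.1 ng and 2.21 ± 0.136% at 1 ng. By edgeR, 0 of 11 T cell receptor segments tested were called, 1 at an unadjusted p under 0.05. By GC, the medians ran from 0.03 under 40% to -0.11 at 55 to 60%, with -0.08 at 60% and over. By exon length they ran from -0.38 under 1000 bases to 0.10 at 8000 bases and over. Gm10800, a predicted gene with near-identical relatives, did not pass at 0.5 against 5 ng (0.09, SE 0.0696, adjusted p = 0.514, edgeR) and was at 2.95 at 0.1 against 1 ng.

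Between 1 and 5 ng, a 5-fold difference that shares the 5 ng libraries, 3 of 12616 genes were called (0.0238%), with 1317 at an unadjusted p under 0.05. The median fold change there was -0.10 for the ribosomal protein genes, -0.005 for the mitochondrially encoded genes and 0.05 for the T cell receptor segments tested.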

How the data were processed

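The deposited table holds whole-number counts per gene, with no normalization by the authors. Per the submitters' processing notes, HISAT2 2.1.0, featureCounts (no version) and the build mm8 were used, and no role is given. Of the sample columns, 12 from T cell libraries were not used. The counts were tested with edgeR 4.0.16 under R 4.3.3, on the 6 libraries alone, after its default filter (filterByExpr) and with TMM factors. SE is the fold change over the root of the F statistic. Gene length, GC and class are from GENCODE M21 (22391 of 22488 symbols, 99.6%). Its build differs from the one listed, so no coordinates are given. Shares and genes detected were compared by exact permutation. Intervals and floors cover counting error only and take counts in units of 2, a choice made after seeing the data.

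The members and gene lists were chosen with earlier results of these data known. There were 32 lists, 30 with members in the table, covering spleen cell types, stress, cell cycle, translation, respiration, receptors and repeated gene families. Named genes were the 10 largest rises and falls called with groups apart and at least 10 CPM, the 10 most abundant, 3 members per list and the smallest p per abundance bin, 114 in all; Rpl3, Rpl5, Rpl21, Rpl36, Rpl38, Rpl41, Rps10, other mitochondrial genes, Trac, Trbc1, Trbv21, Cd79a and Slc4a1 were named after their values were seen. Alternatives were DESeq2 1.42.0, limma 3.58.1, other scalings, filters, limits and pseudocounts, thinning, a replicate block and leaving out each library. The edgeR test was also run on simulated data with changes of 2- and 4-fold and the same spread in both groups. The real groups differed in spread and most calls were smaller, so that run cannot vouch for the calls.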

Additional observations from a re-analysis of the deposited data

How the results depend on the processing

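The 639 calls (361 higher, 278 lower) became 1376 (789 and 587) with DESeq2 and 34 (7 and 27) with all 11 RNA libraries in 1 fit. Without a low-count filter 444 genes were lower. Leaving out 1 library gave 172 to 815 calls, with 82 to 427 higher and 90 to 388 lower; the cause was not tested. Of the 639, 636 were called by DESeq2, 34 in the fit of 11 libraries and 172 to 205 without a 5 ng library, with at least 630 keeping their sign in every alternative run. The replicate block gave 704 calls, and its numbers share no pairing: residual correlations of same-numbered libraries were 0.0113, 0.00294 and -0.00603. The difference in genes detected, -1612 at 0.5 ng, was -663 at 2 counts, -246.0 at 5, -2157 without thinning and -1012 in units of 2 counts, which also cut the genes found at 5 ng alone from 282 to 171. The class shares and the ratio of median SD, 1.66, changed by less than the spread or 1.5 times. The collagen median, with no gene called, turned from -0.28 to 0.10 after thinning and ranged from -0.33 to 0.0041 with 1 library left out, positive without replicate 3 of 5 ng. Of 50 named genes called, 11 (among them Igkc, Ighm, Hbb-bs, Eef1a1, Eef2, Rpsa and mt-Nd6) passed in all 14 alternatives. Genes under 10 CPM rest on few counts, and their detection differed between the inputs at a common depth too.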

Other observations

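The other gene groups listed for spleen and for sample handling had between 0 and 3 calls each at 0.5 against 5 ng, where 2.87% of all genes were higher and 2.21% lower. Heat shock genes had 1 lower of 8 tested (12.5%), with a median fold change of -0.09, and immediate early genes, which respond within minutes to handling, had 1 higher of 17 (5.88%) and a median of 0.15. Interferon-response genes had 1 call in each direction of 19 (5.26% each). Genes of red pulp macrophages, which recycle iron from red cells, had 1 lower of 12 (8.33%), and 10 stroma and endothelium genes and 9 platelet and megakaryocyte genes had 0 calls by edgeR (0 and 1 at an unadjusted p under 0.05, 0 and 0 by DESeq2). Among all genes tested, 18.7% had an unadjusted p under 0.05 by edgeR. Cell-cycle genes were higher in 4.55% and lower in 9.09% of 22 cases, and mitochondrial ribosomal protein genes had 0 higher and 1 lower of 76 (1.32%), with a median of -0.10.

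Olfactory and vomeronasal receptor genes, which sense odours and are not known as spleen genes, are 1462 in the table, and 7 had enough counts to test, with 1 higher. A gene can have entered the test through its counts at 0.5 ng alone, so this number is no count over the class. Their share of counts was 0.0324 ± 0.00314% at 0.5 ng and 0.0205 ± 0.000409% at 5 ng (SD, n = 3), and 0.166 and 0.177% in the 2 libraries of 0.1 ng. Gm10800 and its relatives took 0.578 ± 0.0489% and 0.538 ± 0.0685%, with overlapping groups, and 3.20 and 3.76% at 0.1 ng. A list of 20 genes of other tissues, such as muscle and liver, took 0.00152 ± 0.000190% at 0.5 ng and 0.00228 ± 0.000204% at 5 ng. Of 4 Y-linked genes 1 was higher, with 4 positive values. Lists of microRNA and snoRNA genes had no member in the table.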
